A study of Mus musculus with 23 samples.

Results

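The transcripts of the T cell receptor complex and its coreceptors were followed in 23 MC38 tumors. The 10 genes, of 26869 in the table, were the CD3 chains Cd3d, Cd3e and Cd3g, the zeta chain Cd247, the coreceptor chains Cd8a, Cd8b1 and Cd4, the kinases Lck and Zap70, and the costimulatory receptor Cd28. They were given as a list of symbols and matched to Ensembl identifiers through GENCODE vM21, and all 10 were found.

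MC38 is a mouse colon carcinoma line, and here it was grown under the skin of female mice aged 8 to 12 weeks. The hosts were F1 offspring of C57BL/6J and a Collaborative Cross strain, a recombinant inbred strain made from 8 founders, so every host carried a C57BL/6J genome copy. The responder (R) hosts were CC001F1 (C57BL/6J x CC001/UncJ), CC002F1 (C57BL/6J x CC002/UncJ) and CC075F1 (C57BL/6J x CC075/UncJ). The non-responder (NR) hosts were CC036F1 (C57BL/6J x CC036/UncJ), CC079F1 (C57BL/6J x CC079/TauUncJ) and CC080F1 (C57BL/6J x CC080/TauUncJ). The division into R and NR came from the study's text and describes how these lines responded to treatment. Tumors of 75 to 110 mm3 received 1 dose (200 µg) of PD-1 blocking antibody, called aPD1 (clone 29F.1A12), or of isotype control (clone 2A3), and were taken after 48 h. There were 2 tumors for each line and antibody and a single one for aPD1 in CC080F1, giving 6 R isotype, 6 R aPD1, 6 NR isotype and 5 NR aPD1 tumors. Whole tumor pieces were sequenced without sorting, so a higher transcript level can mean more cells of a type or more RNA per cell, and these cannot be told apart.

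T cells recognize antigen through a variable receptor pair that cannot signal by itself. The CD3 gamma, delta and epsilon chains and the zeta chain assemble with that pair and carry the signaling motifs. CD8, made of alpha and beta chains, binds MHC class I on target cells and marks cytotoxic T cells, while CD4 binds MHC class II and marks helper and regulatory T cells. Both coreceptors bring the kinase Lck to the receptor, Lck phosphorylates the CD3 and zeta chains, and Zap70 docks there and passes the signal on. CD28 binds CD80 and CD86 on antigen-presenting cells and adds the second signal. Several of the transcripts also occur outside T cells: natural killer (NK) cells also use Cd247, Zap70 and Lck, some dendritic cells carry Cd8a as a homodimer, and some dendritic cells and macrophages carry Cd4.

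The libraries held 14494014 to 71868253 expected counts, with 6 shallow libraries of at most 18354585 counts (2 R and 4 NR) and 17 deep ones of at least 37242363. The 10 genes together took 193 to 5931 counts per library. Levels below are normalized counts, meaning counts divided by the DESeq2 size factor of the library. The lymph node gene Glycam1 had 387 counts in CC002F1 isotype replicate 1, 339 in CC079F1 aPD1 replicate 1 and 309 in CC080F1 aPD1 replicate 1, and 0 in the other tumors. Summed skeletal muscle genes ran from 10.7 to 10070 normalized counts and peaked in CC001F1 aPD1 replicate 1. As a check of the carcinoma label, the epithelial genes Epcam, Krt8, Krt18 and Krt19 ran from 2.5 to 66.9, 0 to 178, 0 to 156 and 0 to 220 normalized counts, with 0 counts of Krt18 in 7 tumors, while the mesenchymal gene Vim ran from 92300 to 123000. These 5 genes were chosen after their values were seen.

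The genes lie in a few clusters of the genome (GRCm38). Cd3g (ENSMUSG00000002033, chromosome 9, 44969572 to 44980431, minus strand) and Cd3d (ENSMUSG00000032094, chromosome 9, 44981786 to 44987339, plus strand) run away from each other, with starts 1355 bp apart. Cd3e (ENSMUSG00000032093, chromosome 9, 44998740 to 45009627, minus strand) starts 27841 bp from Cd3d. Cd8b1 (ENSMUSG00000053044, chromosome 6, 71322788 to 71337494) and Cd8a (ENSMUSG00000053977, chromosome 6, 71373427 to 71379173) are both on the plus strand, 50639 bp apart at their starts. Cd4 (ENSMUSG00000023274, 124864692 to 124888221, minus strand) is elsewhere on chromosome 6. Zap70 (ENSMUSG00000026117, 36761798 to 36782818), Cd28 (ENSMUSG00000026012, 60716800 to 60773359) and Cd247 (ENSMUSG00000005763, 165788681 to 165877277) are on chromosome 1, all on the plus strand. Lck (ENSMUSG00000000409, 129548344 to 129573641, minus strand) is on chromosome 4. The Cd247 span overlaps 5 other annotated genes and the Zap70 span 1, and counting by strand is not stated in the sources used here.

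Promoter sequence (RefSeq, GRCm38.p6) was found for 7 of the 10 genes, over 10 start sites. The 250 bases before the start are shown for the CD3 chains, which moved together across tumors, and for Cd8a, which differed most between classes. Capitals mark matches, on either strand, to 5 short motifs of factors known from T cells, picked with the sequences in view. The RUNX motif searched was TGTGGT and the ETS motif was AGGAAG. The TCF1 and LEF1 motif was CTTTGA, the GATA motif was AGATAA and the E-box was CAGCTG, and no matches shown overlap.
Cd3d, chr9:44981536-44981785, plus strand: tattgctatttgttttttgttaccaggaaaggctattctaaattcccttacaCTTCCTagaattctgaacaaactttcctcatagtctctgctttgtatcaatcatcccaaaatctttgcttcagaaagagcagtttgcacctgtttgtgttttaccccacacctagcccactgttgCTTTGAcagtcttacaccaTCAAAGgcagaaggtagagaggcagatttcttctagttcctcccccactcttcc
Cd3g, chr9:44980432-44980681, minus strand: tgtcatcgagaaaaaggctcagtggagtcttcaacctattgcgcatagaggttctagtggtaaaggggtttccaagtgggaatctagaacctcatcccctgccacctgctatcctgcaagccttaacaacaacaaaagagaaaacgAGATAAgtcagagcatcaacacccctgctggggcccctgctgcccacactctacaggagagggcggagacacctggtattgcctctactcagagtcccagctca
Cd3e, chr9:45009612-45009861, minus strand: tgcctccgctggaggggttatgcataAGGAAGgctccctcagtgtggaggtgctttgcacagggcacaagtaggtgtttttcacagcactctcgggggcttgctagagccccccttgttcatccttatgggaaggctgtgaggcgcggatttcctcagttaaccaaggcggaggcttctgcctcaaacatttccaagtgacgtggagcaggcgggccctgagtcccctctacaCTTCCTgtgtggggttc
Cd8a, chr6:71373177-71373426, plus strand: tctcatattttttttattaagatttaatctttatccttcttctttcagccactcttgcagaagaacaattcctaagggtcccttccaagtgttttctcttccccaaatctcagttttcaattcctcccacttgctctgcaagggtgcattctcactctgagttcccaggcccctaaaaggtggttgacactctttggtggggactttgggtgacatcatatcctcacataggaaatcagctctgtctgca
The Cd3d window held 1 ETS match, 198 bases before the start, and 2 TCF1 and LEF1 matches, 73 and 54 bases before it. The Cd3e window held ETS matches at 224 and 17 bases, Cd3g held 1 GATA match at 104 bases, and Cd8a held none of the 5 motifs. Such matches are common. Among 32851 promoter windows of the same length, 29.5% held the ETS motif, 14% the RUNX motif, 13.8% the TCF1 and LEF1 motif, 13% the E-box and 9.99% the GATA motif.

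Per kilobase of annotated exon, the mean level over all tumors was highest for Cd8a (109 normalized counts per kb) and Lck (101), followed by Cd8b1 (83.4), Cd3d (60.9), Cd3g (50.4), Zap70 (40.4), Cd3e (34.2), Cd4 (23.7), Cd28 (21.5) and Cd247 (18). On this scale the Cd8a level was thus well above that of Cd4, whose mean was 95.6 normalized counts before division by length, against 397 for Cd8a.

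The central question was whether tumors of R and NR hosts differed in these genes. Over all tumors, 9 of the 10 genes were higher in R tumors, and Cd4 was the exception. Among all genes tested, 7.66% were called higher in R by the same rule, a DESeq2 adjusted p under 0.05 with antibody as a term. The median log2 difference of the 10 genes was 1.17, against about 0 (-0.000425) for all genes. The list was drawn up with earlier results of these data known, so its count is a description of these genes.

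**Figure D1:**
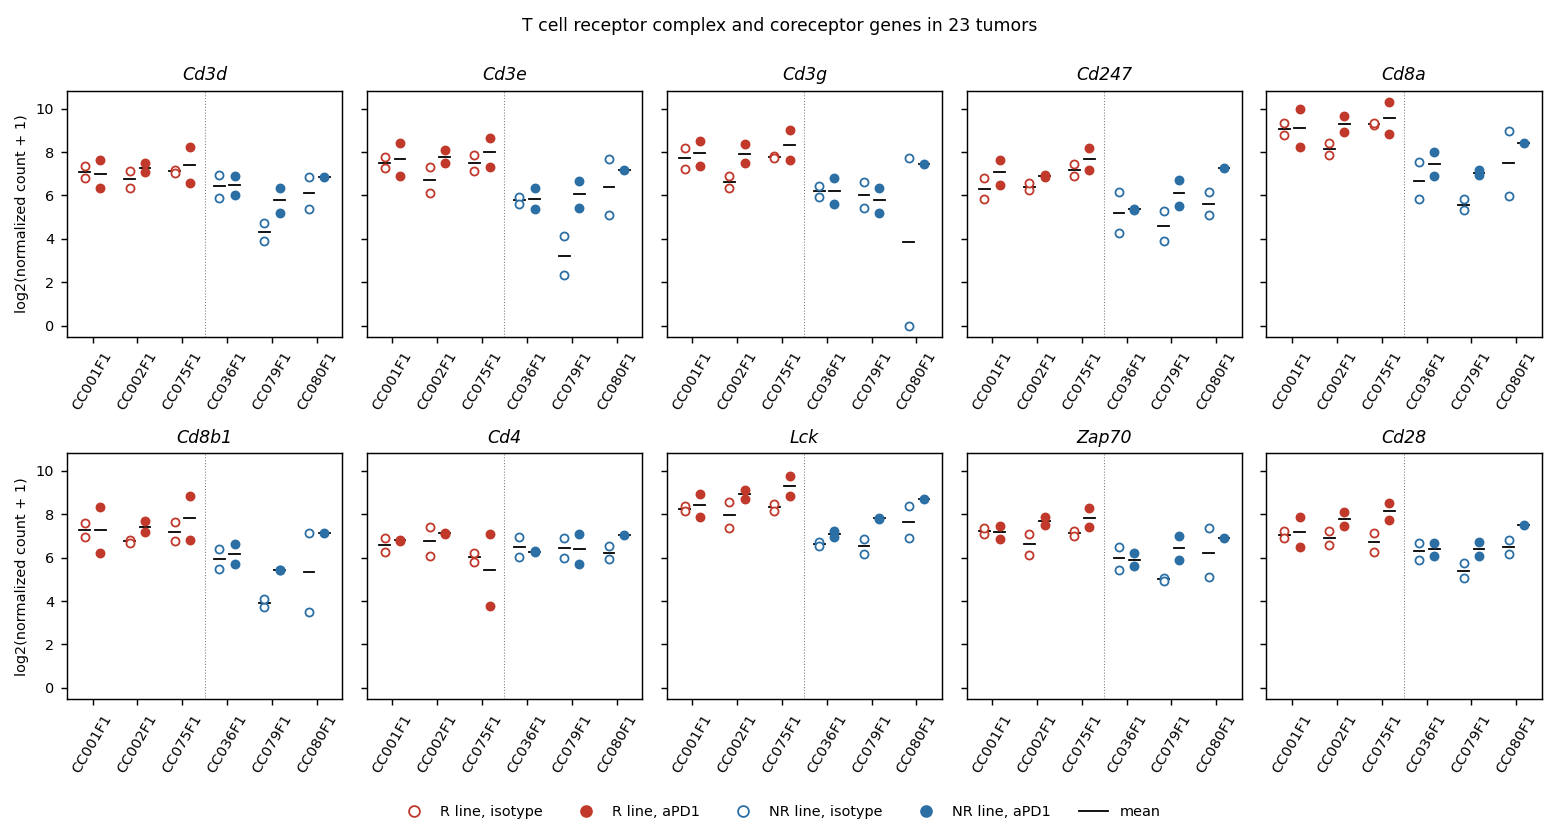
Level of each of the 10 genes in every tumor, as log2(normalized count + 1), by host line (x axis) with R lines left and NR lines right of the dotted line. Open points are isotype and filled points aPD1 tumors, and bars are means of 1 or 2 tumors. For Cd4 the lines overlap, and 1 CC075F1 aPD1 tumor lies apart at 12.8 normalized counts.

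Cd8a, the alpha chain found in all CD8 receptors, showed the widest separation. In CC075F1 it had 615 and 647 normalized counts in isotype tumors and 1256 and 460 in aPD1 tumors. CC001F1 had 649 and 442 in isotype and 301 and 1008 in aPD1 tumors, and CC002F1 had 338 and 233 in isotype and 487 and 816 in aPD1 tumors. The lowest R tumor was thus at 233, and the highest values came from aPD1 tumors. Among NR lines, CC036F1 had 185 and 55.7 in isotype and 260 and 117 in aPD1 tumors. CC079F1 had 39.2 and 55.5 in isotype and 142 and 123 in aPD1 tumors. CC080F1 was split, with 508 and 61.5 in isotype tumors and 339 in its aPD1 tumor. The classes overlapped through CC080F1 and 1 CC036F1 tumor, with 1 of 6 NR isotype and 1 of 5 NR aPD1 tumors above the lowest R tumor given the same antibody. The log2 difference was 1.78 ± 0.39 (SE), a 3.42-fold higher level in R, with a DESeq2 adjusted p of 0.00018.

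Cd8b1, the beta chain that marks the conventional CD8 alpha-beta receptor, moved with it. Its level was 102 to 197 normalized counts in R isotype tumors (median 118) and 73.6 to 465 in R aPD1 tumors (median 173). In NR tumors it was 10.2 to 141 with isotype (median 30), and the 5 aPD1 tumors had 98.6, 52.0, 41.5, 42.6 and 141. The NR values at 141 were both from CC080F1. The log2 difference was 1.48 ± 0.40, with an adjusted p of 0.0034 in DESeq2.

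Cd4 behaved differently. In CC001F1 it had 119 and 75.1 normalized counts in isotype and 109 and 111 in aPD1 tumors, and in CC002F1 170 and 66.7 in isotype and 137 and 139 in aPD1 tumors. In CC075F1 the isotype tumors had 55.2 and 73.7, and the aPD1 tumors 135 and 12.8, the last from only 5 counts. The NR values lay within the range of the R values. CC036F1 had 124 and 63.6 in isotype and 77.4 and 75.0 in aPD1 tumors, CC079F1 had 63.0 and 121 in isotype and 134 and 51.5 in aPD1 tumors, and CC080F1 had 59.9 and 92.2 in isotype tumors and 133 in the aPD1 tumor. No NR tumor lay below the lowest R tumor given the same antibody. The log2 difference was 0.16 ± 0.25 (95% interval -0.33 to 0.65), with an adjusted p of 0.755 in DESeq2. It was 0.034 to 0.26 with a tumor left out. In the 17 deep libraries the Cd4 difference was larger, at 0.43, with an unadjusted p under 0.05 and an adjusted p of 0.184 in DESeq2. With all tumors, the Cd4 interval leaves out the estimate for every one of the other 9 genes, which ranged from 0.94 to 1.78. It overlaps the intervals of Cd3d, Cd28, Cd3g, Zap70 and Lck, whose lower ends were 0.47 to 0.61, so this is no test of a difference. The direct test of Cd8a against Cd4 is given with their ratio.

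The CD3 chains and the zeta chain were all higher in R tumors. Cd3e, the chain most used to identify T cells, had 68.6 to 229 normalized counts in R isotype tumors (median 155) and 119 to 400 in R aPD1 tumors (median 224). In NR isotype tumors it had 3.97 to 205 (median 40.5), and the NR aPD1 tumors had 79.2, 39.9, 101, 42.6 and 145. Only CC080F1 isotype replicate 1, at 205, exceeded the lowest R isotype tumor. Its log2 difference was 1.47 ± 0.40 with a DESeq2 adjusted p of 0.0044, and in the deep libraries it was 1.21 and lost its call (adjusted p 0.0545). Cd3d differed by 1.01 ± 0.27 (adjusted p 0.0039 in DESeq2), from 80.0 to 300.3 in R and 13.9 to 124 in NR tumors.

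Cd3g differed by 1.39 ± 0.41 (adjusted p 0.0087 in DESeq2), with 79.1 to 524 normalized counts in R and 0 to 212 in NR tumors. The 0 was in CC080F1 isotype replicate 2, where 0 counts allow a level of up to 7.68 (3 counts), while Cd3d and Cd3e had 16 and 13 counts there. In CC079F1 isotype replicate 2 the order was the other way round, with 49 Cd3g counts beside 7 of Cd3d and 2 of Cd3e. Relations among the CD3 chains in the tumors with fewest T cell transcripts thus rest on few reads. Cd247, which encodes the zeta chain with most of the receptor's signaling motifs, differed by 1.22 ± 0.28 (adjusted p 0.00047 in DESeq2), with 55.8 to 291 in R and 13.9 to 151 in NR tumors.

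The signaling members followed the receptor chains. Lck had 166 to 375 normalized counts in R isotype tumors (median 311.5), 235 to 876 in R aPD1 tumors (median 475) and 70.2 to 332 in NR isotype tumors (median 111). The NR aPD1 tumors had 150 and 122 in CC036F1, 221 and 229 in CC079F1 and 411 in CC080F1. The log2 difference was 1.13 ± 0.26 with an adjusted p of 0.00055 in DESeq2. Zap70 differed by 1.10 ± 0.25 (adjusted p 0.0005), from 69.5 to 313 in R and 29.7 to 163 in NR tumors. Cd28 differed by 0.94 ± 0.22 (adjusted p 0.00077), from 75.2 to 370 in R and 32.0 to 179 in NR tumors. Every NR maximum named here for Lck, Zap70 and Cd28 was a CC080F1 tumor.

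These calls over all tumors held with each tumor left out in turn (9 of 10 genes each time), with edgeR (9) and in limma when line entered as a random term (9). The DESeq2 fit treats tumors of a line as independent, and depth moved in part with class, since 4 of the 6 shallow libraries were NR. In deep libraries alone 8 genes were called, Cd3e being the one lost.

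**Figure D2:**
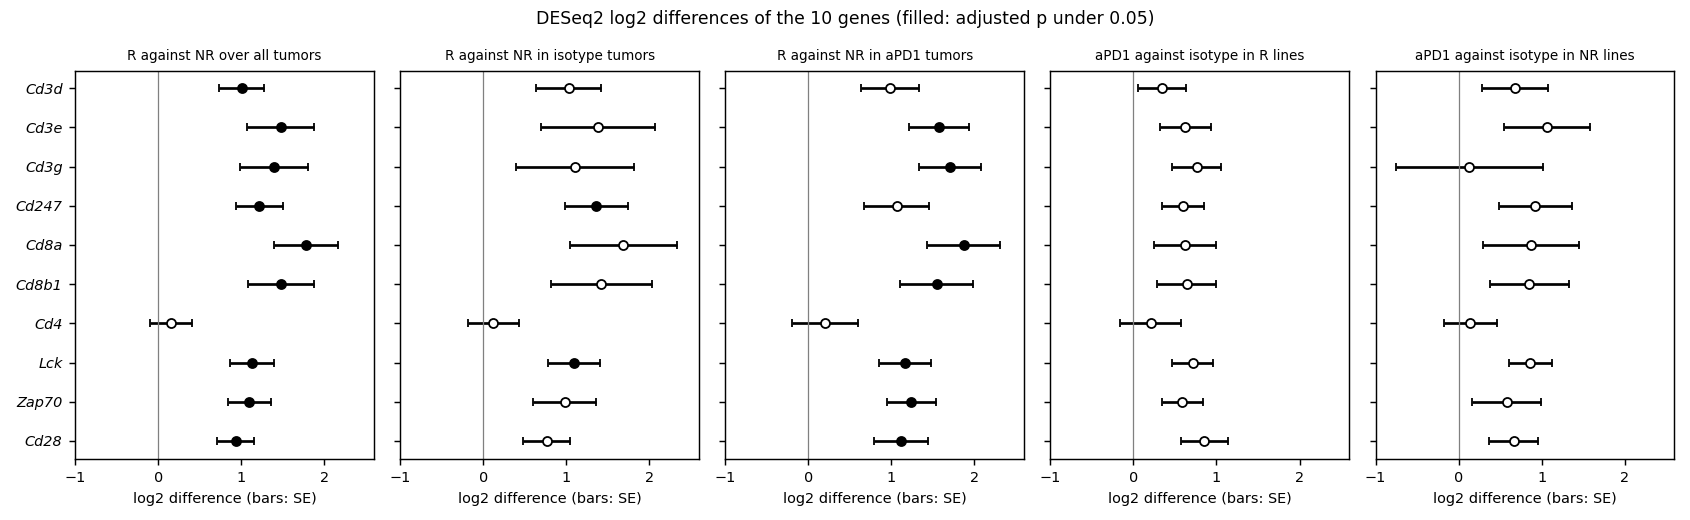
DESeq2 log2 difference of each gene (x axis) in 5 comparisons, with bars of 1 SE. Filled points passed an adjusted p under 0.05. Cd4 lies near 0 in all 5 panels, between 0.12 and 0.21, and no gene passed in the 2 panels on antibody.

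In isotype tumors alone, the log2 differences were of like size but fewer passed. Cd247 (1.36 ± 0.38, adjusted p 0.0129) and Lck (1.09 ± 0.31, adjusted p 0.0167) were called in DESeq2, 2 of 10 genes where 2.29% of all genes were called higher in R. Cd8a had 1.69 ± 0.64 (adjusted p 0.0955) and Cd3e 1.38 ± 0.69 (adjusted p 0.239). A single tumor weighed heavily here. CC080F1 isotype replicate 1, at 508 normalized counts of Cd8a beside 39.2 to 185 in the other 5 NR isotype tumors, was the highest NR isotype tumor for Cd3e, Cd3g, Cd8a, Cd8b1, Lck, Zap70, Cd28 and Cd247. Without it 8 genes passed, with Cd8a at 2.63 and Cd3e at 2.32. That tumor had 89.3 normalized counts of Tcrg-C1, a constant gene of the gamma-delta receptor (164 counts), against 0 counts in its shallower replicate, which allow a level of up to 7.68. Leaving out 1 of CC001F1 isotype replicate 1, CC002F1 isotype replicate 1, CC075F1 isotype replicate 1, CC036F1 isotype replicate 2, CC079F1 isotype replicates 1 or 2, or CC080F1 isotype replicate 2 left 1 gene called. Over all genes these fits called 402 to 976. edgeR called 0 of the 10 genes after adjustment, but only 30 of all 24538 genes. Before adjustment 8 of the 10 genes had p under 0.05 in edgeR and in DESeq2, where 3681 and 3285 of all genes did.

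In aPD1 tumors 7 of 10 genes were called higher in R, where the share over all genes was 5.94%. These were Cd3e (1.58 ± 0.36, adjusted p 0.00065), Cd3g (1.71 ± 0.38), Cd8a (1.87 ± 0.44, adjusted p 0.00095), Cd8b1 (1.54 ± 0.44), Lck (1.16 ± 0.31), Zap70 (1.24 ± 0.29) and Cd28 (1.11 ± 0.33) in DESeq2. Cd3d (0.98 ± 0.35, adjusted p 0.0589) and Cd247 (1.07 ± 0.39, adjusted p 0.0717) came close, and Cd4 had 0.20 ± 0.40 (adjusted p 0.86). edgeR called 4 genes, limma with a random line term called 0 (9 with an unadjusted p under 0.05), and without CC079F1 aPD1 replicate 2 DESeq2 called 4. Over all genes edgeR called 560 and limma 199 of 24928, and DESeq2 without that tumor 1158 of 17106.

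The line means followed class. Ordered by the mean of log2(normalized count + 1), all 3 R lines stood above all 3 NR lines for 9 of the 10 genes, Cd4 being the exception, where 14.5% of genes with a mean of at least 50 had such an order. CC075F1 was highest for these 9 genes and lowest for Cd4. For Cd8a the order was CC075F1 (9.44), CC001F1 (9.09), CC002F1 (8.72), CC080F1 (7.79), CC036F1 (7.07) and CC079F1 (6.32). No neighbours in that order differed by more than the larger of their SDs, nor did any for Cd3e, Cd4, Lck, Zap70 or Cd28. Over all 10 genes, 5 of 50 neighbouring pairs did: CC002F1 over CC036F1 for Cd3d, Cd3g and Cd8b1, CC080F1 over CC079F1 for Cd3d, and CC075F1 over CC001F1 for Cd247.

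Whether lines of a class differed among themselves was tested with a likelihood ratio test in DESeq2. Lck alone of the 10 genes passed (adjusted p 0.0061), where 6.29% of all genes did. Its line means on the log2 scale were 8.34, 8.45 and 8.82 in CC001F1, CC002F1 and CC075F1, and 6.86, 7.17 and 7.99 in CC036F1, CC079F1 and CC080F1. This count was not stable: it was 7 in deep libraries alone, 0 in edgeR (5 at an unadjusted p under 0.05), and 0 to 5 with a tumor left out. Over all genes these fits called 1088 of 19014, 502 of 26342 (3057 unadjusted) and 842 to 1488. The count among the 10 genes was 0 without CC080F1 isotype replicate 1 or without CC080F1 aPD1 replicate 1, and 4, 2, 2, 3 and 5 without CC001F1 aPD1 replicate 1, CC075F1 aPD1 replicate 2, CC036F1 isotype replicate 1, CC079F1 aPD1 replicate 1 and CC080F1 isotype replicate 2.

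The second question was what a single aPD1 dose did within 48 h. In R lines all 10 genes had a positive log2 difference, with a median of 0.62, but none passed in DESeq2, where 4.85% of all genes were called higher with aPD1. Unadjusted, 6 of the 10 genes had p under 0.05, and in edgeR 5 did, where 2722 and 2621 of all genes did. After adjustment edgeR called 0 of all 24858 genes. Cd28 came closest with 0.85 ± 0.28 (adjusted p 0.0512), followed by Lck with 0.71 ± 0.24 (adjusted p 0.0589), while Cd8a had 0.62 ± 0.37 (adjusted p 0.437) and Cd4 0.21 ± 0.36 (adjusted p 0.849). By line, Cd28 changed on average by 0.13 (CC001F1), 0.86 (CC002F1) and 1.45 (CC075F1) on the log2 scale.

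This count depended most on a single CC001F1 tumor. CC001F1 aPD1 replicate 1 had 301 normalized counts of Cd8a, the lowest of the R aPD1 tumors, and carried the most skeletal muscle RNA, 10070 summed normalized counts of Acta1, Ckm, Mylpf and Tnnt3 beside 40.1 to 2944 in the other 5 R aPD1 tumors. The part of muscle RNA in the result was not tested. Without that tumor, 7 genes were called higher with aPD1: Cd28 (1.06), Cd3g (0.95), Lck (0.88), Cd8b1 (0.86), Cd3e (0.81), Zap70 (0.74) and Cd247 (0.70). Cd8a, at 0.82, did not pass. Calls over all genes, in either direction, also rose without that tumor, from 826 of 15701 to 1386 of 15555. Without CC001F1 isotype replicate 1 the count among the 10 genes was 3, without CC002F1 isotype replicate 1 it was 1, and without CC075F1 aPD1 replicate 2 it was 2. Over all genes these 3 fits called 589, 633 and 960.

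In NR lines the 10 genes also had positive differences (median 0.76) and none passed, where 0.0448% of all genes were called in either direction. Unadjusted, 4 of the 10 genes had p under 0.05 in DESeq2 and 3 in edgeR, where 1316 and 1472 of all 24552 genes did. Lck had 0.87 ± 0.26 (adjusted p 0.324), Cd3e 1.06 ± 0.52 (adjusted p 0.894), Cd8a 0.87 ± 0.58 and Cd4 0.14 ± 0.32 in DESeq2. The 2 NR tumors with Glycam1 counts were both aPD1 tumors and included the only CC080F1 aPD1 tumor. Without them the differences of Cd4 (-0.46) and Cd3g (-0.29) were negative, but CC080F1 no longer entered the comparison. With all tumors, the mean log2 changes in CC036F1, CC079F1 and CC080F1 were -0.22, -0.07 and 0.83 for Cd4. For Cd3g they were 0.01, -0.25 and 3.56. Without CC080F1 isotype replicate 1, Cd8a (1.34) and Lck (1.06) were called, while calls over all genes rose from 11 of 24552 to 139 of 17554. The change with aPD1 was not shown to differ between classes: of the 10 genes none passed the interaction test in DESeq2, where 0.0342% of all genes did, none had an unadjusted p under 0.05 there or in edgeR, and the smallest was 0.45, for Cd3g. This comparison was imprecise, as the interval for Cd8a ran from -1.55 to 1.08 on the log2 scale.

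The balance of the coreceptors was read from the ratio of Cd8a to Cd4 counts, which needs no library scaling. Cd8a made up 66.5% to 97.3% of the 2 genes' counts in R tumors and 31.5% to 89.5% in NR tumors. The exact 95% binomial interval was 62.2% to 70.5% for the lowest R tumor, CC002F1 isotype replicate 1, and 22% to 42.2% for the lowest NR tumor, CC079F1 isotype replicate 2. These intervals cover counting error only. Cd4 had more counts than Cd8a in 4 NR tumors, all isotype (1 of CC036F1, both of CC079F1 and 1 of CC080F1), and in 0 of 12 R tumors. For CC036F1 isotype replicate 2 (38.0% to 55.4%) and CC080F1 isotype replicate 2 (27.6% to 53.5%) the interval included equal counts. Both CC079F1 intervals lay below equal counts, with 28.8% to 48.7% for replicate 1.

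The mean log2 ratio was 2.39 ± 0.90 (SD, n = 6) in R isotype tumors, 2.88 ± 1.27 (SD, n = 6) in R aPD1 tumors, 0.18 ± 1.53 (SD, n = 6) in NR isotype tumors and 1.01 ± 0.65 (SD, n = 5) in NR aPD1 tumors. By line it was 3.71 in CC075F1 (a ratio of 13.1), 2.41 in CC001F1 (5.30), 1.79 in CC002F1 (3.46), 1.28 in CC080F1 (2.43), 0.69 in CC036F1 (1.62) and -0.11 in CC079F1 (0.924). The R lines stood above the NR lines, although the SD within CC080F1 was 1.83 over 3 tumors, with the isotype tumors at 3.08 and -0.58.

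**Figure D3:**
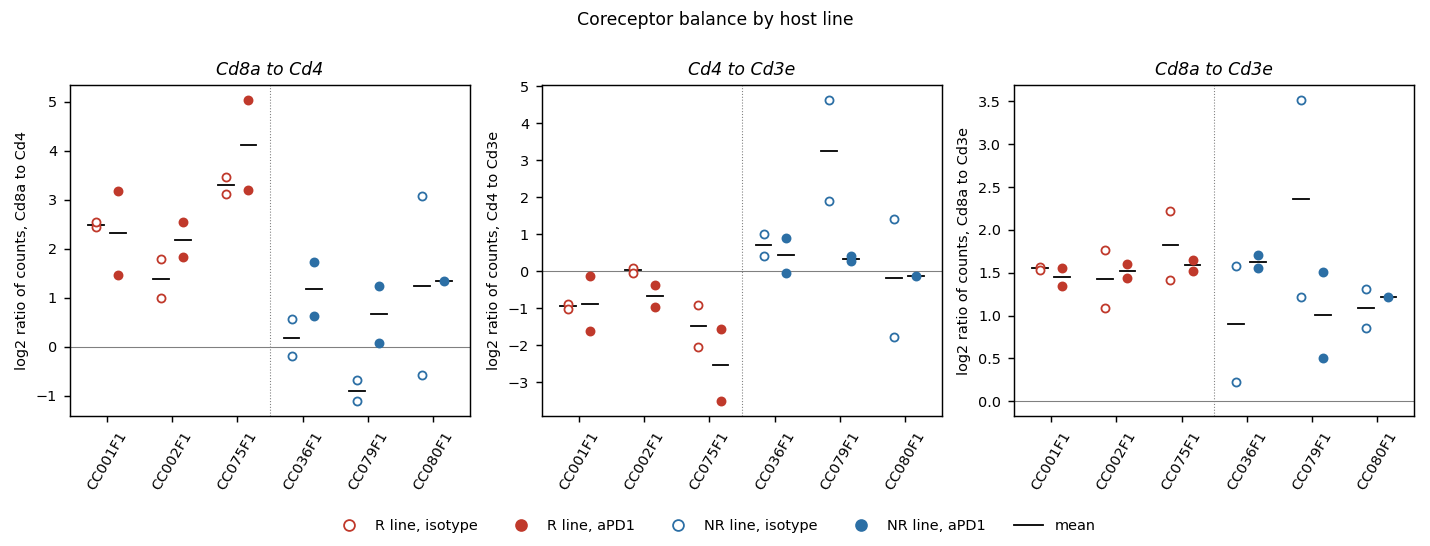
Log2 ratio of counts in every tumor for Cd8a to Cd4 (left), Cd4 to Cd3e (middle) and Cd8a to Cd3e (right), by host line, with open isotype and filled aPD1 points and bars for means. R lines (left of the dotted line) had higher Cd8a to Cd4 and lower Cd4 to Cd3e ratios, while Cd8a to Cd3e had group means of 1.30 to 1.60.

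Over all tumors the log2 ratio of Cd8a to Cd4 was higher in R by 2.08, a 4.22-fold difference (two-sided permutation p 0.00037, adjusted p 0.00888 over 24 ratio and contrast pairs). The difference was 2.21 in isotype tumors (exact permutation p 0.0195, adjusted p 0.0935) and 1.86 in aPD1 tumors (exact permutation p 0.013, adjusted p 0.0779), neither of which passed. These permutations moved class over single tumors and so treat tumors of a line as independent, although class belongs to the line. Over the 6 line means the difference was 2.02, with an exact permutation p of 0.1, the smallest that 3 lines against 3 can give. In the 17 deep libraries it was 1.54 and did not pass (permutation p 0.0106, adjusted p 0.19). Without CC080F1 isotype replicate 1 the isotype difference was 2.79 and passed (adjusted p 0.026 by exact permutation), and without CC001F1 aPD1 replicate 1 the aPD1 difference was 2.15 and passed (adjusted p 0.0476 by exact permutation). The change of the ratio with aPD1 did not pass, at 0.48 in R lines (exact permutation p 0.306) and 0.88 in NR lines (exact permutation p 0.343), and the 2 changes differed by -0.40 (exact permutation p 0.4). That last test set 3 line changes against 3 and could not pass, since its smallest p is 0.1. Without the 3 Glycam1 libraries the change in NR lines was 1.57 (exact permutation p 0.0556, adjusted p 0.179) and the difference -1.22 (exact permutation p 0.1, adjusted p 0.267). These libraries held the only CC080F1 aPD1 tumor, so among NR lines both values rest on CC036F1 and CC079F1 alone. Neither test could pass, as each unadjusted p was the smallest that the remaining tumors allow. With Cd8b1 in place of Cd8a, the difference over all tumors was 1.76 and also passed.

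Each coreceptor was then set against Cd3e. Cd4 to Cd3e was lower in R tumors by 1.90 on the log2 scale (-1.90, permutation p 0.00074, adjusted p 0.00888), again not passing in deep libraries alone (-1.08, adjusted p 0.19 by permutation). Permutations of class over tumors here also treat tumors of a line as independent. The highest log2 ratio of Cd4 to Cd3e, 4.62 in CC079F1 isotype replicate 2, came from 61 Cd4 counts beside 2 of Cd3e. Cd8a to Cd3e differed by 0.18 (permutation p 0.535, adjusted p 0.802) and had a group mean of 1.60 ± 0.38 in R isotype, 1.52 ± 0.11 in R aPD1, 1.45 ± 1.11 in NR isotype and 1.30 ± 0.48 in NR aPD1 tumors (SD, n = 6, 6, 6 and 5). Cd8b1 to Cd8a differed by -0.31 between classes (permutation p 0.111, adjusted p 0.332), and with a pseudocount of 5 in place of 0.5 it was -0.45 and passed (adjusted p 0.044 by permutation). No antibody contrast of these ratios passed, with adjusted p of 0.617 or more by exact permutation. Among them, the contrasts of the aPD1 change between classes could not pass, as 3 lines against 3 give a p of at least 0.1.

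Across the 23 tumors the same split appeared in rank correlations, given as a description since the tumors share line, class and antibody groups. Among the 36 pairs without Cd4, Spearman's rho of log2(normalized count + 1) was 0.75 to 0.95 (median 0.86). For the 9 pairs with Cd4 it was 0.21 to 0.44 (median 0.27).

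**Figure D4:**
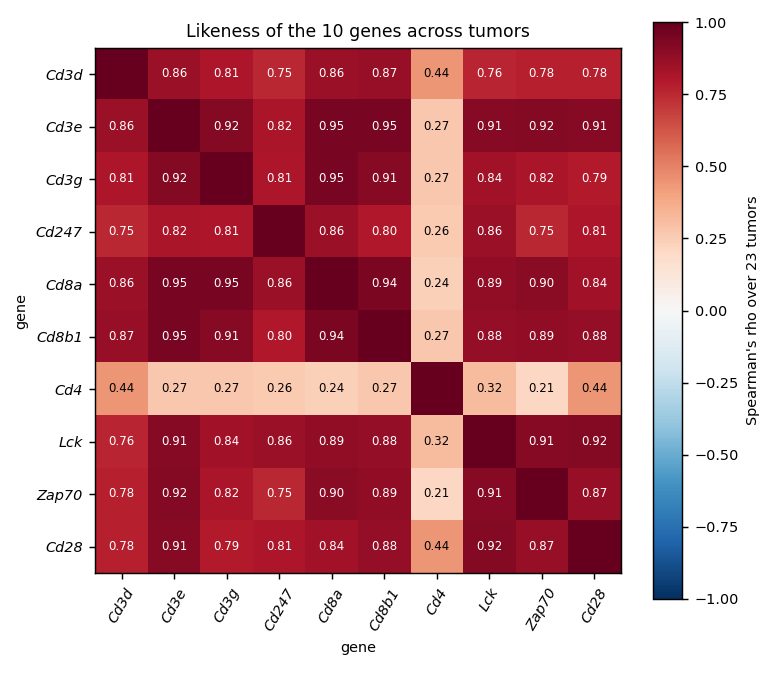
Spearman's rho between the 10 genes over 23 tumors, from log2(normalized count + 1), with genes on both axes and color from -1 to 1. The Cd4 row and column hold 0.21 to 0.44, all other pairs 0.75 to 0.95.

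Outside the list, genes whose level was most like the mean z score of the 10 genes over 23 tumors included Gimap3 (rho 0.97), Trbc2 (0.94), Lat (0.93) and Cd6 (0.93). Those most like Cd8a included Pdcd1, which encodes PD-1 (0.96), Il18r1 (0.95), Klrc1 (0.95) and Nkg7 (0.94). For Cd4 the highest values were far lower, with Tnfsf13 (0.68), Slamf6 (0.67), Wdr83 (0.66), Kit (0.66) and Polr2i (0.66).

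The variable receptor itself was represented by its constant genes. Of 7 such genes, 3 were higher in R over all tumors and none lower: Trac (1.28 ± 0.26, adjusted p 6.24e-05 in DESeq2), Trbc1 (1.03 ± 0.25) and Trbc2 (0.98 ± 0.28), the alpha and beta chains. Trbc1 and Trbc2 are near-identical, so reads between them may be split unevenly. The gamma-delta genes did not pass, with the lowest values for Tcrg-C4 (0.57 ± 0.70) and Tcrg-C1 (-0.16 ± 1.01, for which DESeq2 gave no adjusted p). The median over the 7 was 0.89, and 7.66% of all genes were called higher in R by the same rule.

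Among 25 genes of proximal receptor signaling, 20 were higher and 1 lower in R over all tumors (all genes: 7.66% higher), with a median of 0.77. Among the highest was Ubash3a (1.54 ± 0.33), which encodes a phosphatase family protein that dampens receptor signals. The lowest were Plcg1 (-0.23 ± 0.05, adjusted p 0.00015), a phospholipase that many cells express, and Fyn (0.11 ± 0.07, adjusted p 0.357), an Lck relative, in DESeq2. With aPD1 in R lines 7 of the 25 rose (all genes: 4.85% higher) and none fell, with a median of 0.54. Grap2 (0.97 ± 0.23, adjusted p 0.0029) and Ptpn22 (0.80 ± 0.23, adjusted p 0.0139) changed most in DESeq2, and Trat1 (-1.05 ± 1.57, no adjusted p) and Plcg1 (-0.03 ± 0.07) were lowest. Several of the 7, such as Ptpn6, Lcp2 and Vav1, are also expressed by myeloid cells. In NR lines none of the 25 passed, where 0.0448% of all genes did, with a median of 0.37.

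The CD28 ligands, which antigen-presenting cells carry, were also followed. Cd86 was higher in R tumors (0.54 ± 0.13, adjusted p 0.00091 in DESeq2) and rose with aPD1 in R lines (0.65 ± 0.17, adjusted p 0.0077), while Cd80 had 0.49 ± 0.21 (adjusted p 0.0966) and 0.43 ± 0.28 (adjusted p 0.482) in the same comparisons.

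Markers of other cells moved in part with the classes, where 7.66% of all genes were called higher in R over all tumors. Of 4 NK cell markers 2 were higher in R over all tumors, Klre1 (1.37 ± 0.34) and Klrb1c (0.87 ± 0.30), and their summed level was 164 to 909.5 normalized counts in R and 94.8 to 264 in NR tumors. Of the cDC1 markers Xcr1 was higher (1.44 ± 0.40) and Clec9a had 0.18 ± 0.10 (adjusted p 0.209). Of 3 macrophage markers Adgre1 (0.43 ± 0.11) and Cd68 (0.37 ± 0.10) were higher. None of 5 B cell, 5 lymph node, 3 plasmacytoid dendritic cell and 4 muscle markers passed over all tumors in DESeq2. In aPD1 tumors, 4 of the B cell and 3 of the lymph node markers were lower in R and all 4 muscle markers higher. Few tumors carried these levels. B cell sums were 916 and 1987 and lymph node sums 751 and 1155 in CC079F1 and CC080F1 aPD1 replicate 1, which held Glycam1 counts. The other NR aPD1 tumors had 151 to 329 and 16.9 to 29.1. Muscle sums were 10070 and 2944 in CC001F1 and CC075F1 aPD1 replicate 1, beside 40.1 to 921 in the other R aPD1 and 33.9 to 287 in NR aPD1 tumors. With aPD1 in R lines 4.85% of all genes were called higher. Among the markers Xcr1 (1.41 ± 0.39), Ccr9 (1.40 ± 0.46), Cd68 (0.53 ± 0.13) and Adgre1 (0.45 ± 0.13) rose there. From the same lists Clec9a (-0.02 ± 0.10), Siglech (0.68 ± 0.57), Klk1 (0.19 ± 0.82, no adjusted p) and Lyz2 (0.33 ± 0.14) did not pass. The lymph node genes Cr2 and Glycam1 fell, the latter having counts in a single R library. Lymph node sums were 984 in that library, CC002F1 isotype replicate 1, beside 7.70 to 45.7 in the other R tumors. The part of these cells in the differences of Cd247, Lck, Zap70, Cd8a and Cd4 was not tested. Without the 3 libraries that held Glycam1 counts, 9 of the 10 genes were still called with both antibodies together, 1 with isotype alone and 8 with aPD1 alone.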

How the data were processed

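Poly(A) RNA of 23 whole tumors was sequenced. The authors aligned reads with bowtie 1.2.3 to founder strain transcriptomes (GENCODE vM23, GRCm38) and deposited expected counts per gene from gbrs, which splits shared reads and is not scaled for depth. They were rounded here to whole counts. Line and antibody came from the labels, class from the study's text. Names and positions came from GENCODE vM21 (GRCm38).

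Genes with at least 5 summed counts were tested with DESeq2 1.42.0 in R 4.3.3 (Wald test, likelihood ratio test for lines within class, Benjamini-Hochberg adjusted p under 0.05), following the study's use of DESeq2. Shown ± values on log2 differences are SE. edgeR 4.0.16 and limma 3.58.1 were alternatives. Ratios were log2 of counts plus 0.5, tested by two-sided permutation (100000 resamples over all tumors, exact otherwise) with SciPy. Named genes were all 10 members, the 2 highest and 2 lowest of a described list (and those a result turned on), and the 5 genes most alike with a mean of at least 50, less an item that is not reported here. Members and lists were chosen with earlier results of these data known. The labels call the 2 tumors of a group biological replicates. Steps were tested on simulated data. Alternatives are in the closing section.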

Additional observations from a re-analysis of the deposited data

Results flagged for a closer look

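In groups of 5 or 6 tumors (class by antibody), 4 of 44 sets of values held a tumor far from the rest by Dixon's test, which chance gives in about 1 group in 20. CC080F1 isotype replicate 1 was the high tumor of the NR isotype group for Cd3e (205 normalized counts), Cd8a (508) and Lck (332). CC075F1 aPD1 replicate 2 was the low tumor of the R aPD1 group for Cd4, with 12.8 normalized counts from 5 counts. These 4 sets share tumors and so are not separate events.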

How the results depend on the processing

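The calls over all tumors (9 of 10 genes) were 9 in edgeR, with TMM size factors, without or with a stricter low count filter, without the 3 Glycam1 libraries, in limma with a line term and with each tumor left out, and 8 in deep libraries. In isotype tumors the 2 calls became 0 in edgeR, limma and deep libraries, where 30, 3 and 44 of all genes were called. They became 1 without Glycam1 libraries and 1 to 8 with a tumor left out, where 402 and 402 to 1838 of all genes were called. In aPD1 tumors the 7 became 4 in edgeR and 0 in limma, where 560 and 199 of all genes were called, and 4 to 9 with a tumor left out. For aPD1 in R lines 0 became 1 in deep libraries, 1 without Glycam1 libraries and 0 to 7, and in NR lines 0 to 2. Between lines 1 became 0 in edgeR, 7 in deep libraries and 0 to 5 with a tumor left out, where 502, 1088 and 842 to 1488 of all genes were called. The causes were not tested.

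Replicate numbers did not pair tumors (same-number correlations of 0.02 to 0.21). With the replicate block, 9 genes were called between classes with both antibodies together, 6 with isotype and 8 with aPD1 alone, 0 for aPD1 in either class, 0 for the interaction and 1 between lines, and Cd3g with aPD1 in NR lines was -0.078.

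Signs turned for uncalled single genes. Without Glycam1 libraries Cd4 was -0.13 between classes in isotype tumors and -0.46 with aPD1 in NR lines, where Cd3g was -0.29 and CC080F1 had no aPD1 tumor left. With a tumor left out these ran from -0.13 to 0.25, -0.10 to 0.35 and -0.088 to 0.65, and Cd4 with aPD1 in R lines from -0.19 to 0.41.

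The log2 ratio of Cd8a to Cd4 between classes was 1.54 in deep libraries and 2.02 over line means, neither passing, and 1.86 to 2.33 with a tumor left out (isotype 1.95 to 2.79, aPD1 1.43 to 2.15). Its change with aPD1 was 0.18 to 0.78 in R and 0.28 to 1.49 in NR lines, and their difference -1.01 to 0.21, or 0.057 in deep libraries. Without Glycam1 libraries these were 0.35, 1.57 and -1.22, the last 2 outside those ranges. In all NR antibody contrasts without Glycam1 libraries, CC080F1 had no aPD1 tumor left. Cd4 to Cd3e between classes was -1.08 in deep libraries and -2.16 to -1.52 with a tumor left out (isotype -2.67 to -1.39, aPD1 -1.89 to -1.21). In deep libraries its aPD1 change in NR lines was 0.058 and the difference -0.32, with a left-out range of -0.044 to 1.04. Cd8b1 to Cd8a between classes was -0.45 with a pseudocount of 5. Its aPD1 change in R lines was 0.029 in deep libraries and -0.21 to 0.11 with a tumor left out. In NR lines it was -0.072 with pseudocount 5, -0.17 in deep libraries, -0.19 without Glycam1 libraries and -0.26 to 0.26, and the difference 0.020, 0.20, 0.079 and -0.33 to 0.21. Cd8a to Cd3e between classes was -0.10 to 0.56 in isotype tumors and -0.071 in aPD1 tumors without Glycam1 libraries. Its aPD1 change was -0.21 to 0.052 in R lines, and in NR lines 0.074 with pseudocount 5, 0.20 in deep libraries and -0.55 to 0.21, with differences of -0.14, -0.26, -0.13 without Glycam1 libraries and -0.29 to 0.47. No contrast of Cd8b1 to Cd8a or Cd8a to Cd3e passed as first fitted. A line left with 1 tumor was assumed to vary like the others. Few reads limit the CD3 chains and Cd4 in shallow libraries.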

Other observations

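CC080F1 isotype replicate 1 had 89.3 normalized counts of Tcrg-C1 and 54.5 of Tcrg-C2, while the shallower CC080F1 isotype replicate 2 had 0 and 5.12, from 0 and 2 counts. Trdc was at 9.80 and 10.2 in these tumors, and Trac at 185 and 102. The Cd4 level was 59.9 and 92.2 normalized counts, so the tumor with more of the other 9 transcripts had less Cd4. These values were looked at after the tumor was seen to stand apart.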
